A study of Mus musculus with 6 samples.

Results

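The genes described here are 25 protein-coding genes, of 47729 genes counted, whose RNA was low in early thymocytes labelled as lacking RBPJ and stayed under 50% of the Control level after RBPJ had been switched back on. They were chosen from these same libraries on their CPM (a gene's reads divided by the library's total and scaled by 1e6). Both Control libraries had to reach 5 CPM, both RBPJ uninduced libraries had to lie at or under 33.3% of the lower Control library, and both RBPJ 6 days induced libraries had to lie under 50% of it. Notch1, Hes1, Tcf7, Tox, Lck, Cd6, Ccr9, Nr4a1 and symbols that begin with Trb, Tcrg, Gimap or Cd3 were left out by name. Of 9139 protein-coding genes with both Control libraries at 5 CPM or more, 232 met the uninduced condition with those names left out. Among these 232, 168 had both induced libraries at 50% or more, 39 had 1 of the 2 below it, and 25 had both below.

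The 6 libraries came from DN1a/b cells of C57BL/6 mice, sorted by flow cytometry from the thymus, with 2 libraries a group. DN1a/b cells are the earliest thymocytes, which carry neither CD4 nor CD8. By their labels, Control mice kept RBPJ throughout, RBPJ uninduced mice lacked it, and RBPJ 6 days induced mice lacked it at first and then expressed it under doxycycline, injected at 2 mg/ml and continued in the drinking water at 1 mg/ml for 6 days. The labels used here do not name the allele, the promoter that drives RBPJ, the animals' age or any doxycycline given to the other groups. They also do not say whether the 2 libraries of a group are separate mice, so p-values measure only the spread between these libraries, which may be technical.

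RBPJ is a DNA-binding protein. When a Notch receptor meets its ligand, its intracellular domain is cut free, enters the nucleus and joins RBPJ and a Mastermind coactivator on DNA, and genes with bound RBPJ are switched on. In the thymus, Notch1 signalling turns incoming progenitors toward the T lineage and away from the myeloid and B lineages.

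Library totals ran from 5098927 to 12932928 reads. Rbpj itself stood at 75.2 and 77.6 CPM in Control, 31.8 and 24.6 in uninduced and 202 and 194 in induced libraries, so the RNA of the restored gene was above Control in both induced libraries. In the uninduced libraries Rbpj RNA was lower (log2 difference -1.34, edgeR adjusted p = 0.00495) but still present. Whole-gene counts do not show which part of the gene these reads come from, and "without RBPJ" below refers to the label. Kit, a defining receptor of DN1 cells, was present in all 6 libraries at 327 to 711 CPM, and Cd44 at 161 to 396. Cd44 was lower in uninduced libraries, at 224 and 161 CPM against 396 and 364 in Control (log2 difference -0.89, edgeR adjusted p = 0.0188). Kit was not called in that comparison. Of 12 cell cycle genes, edgeR called 6 higher in uninduced than in Control (2.49% of all genes) and 0 higher in induced than in Control. Markers of other cells moved with the groups. Of 7 tested mast cell and basophil genes, edgeR called 5 higher in uninduced than in Control. It called 2 of the 7, Gata2 and Ms4a2, higher in induced than in Control, where 34 of all 18174 genes were. The summed level of 13 myeloid genes was 602 and 551 CPM in Control, 5015 and 2789 in uninduced and 804 and 1622 in induced libraries. That of 8 erythroid genes was 170.0 and 142, 490.3 and 692, and 270.4 and 222. Tfrc, 1 of the 8, made up 164 and 124 CPM of the Control sums. In uninduced libraries Tfrc was at 275 and 261 CPM, and in induced ones at 119 and 139. Car1 was at 0.309 and 0 CPM in Control, 124 and 236 in uninduced and 93.0 and 48.3 in induced libraries. Of the 8 genes, edgeR called 5 higher in uninduced than in Control and 1, Car1, higher in induced than in Control. The summed level of 12 B-lineage genes was 331.2 CPM in the second Control library and 894 in the second uninduced library, against 50.5 to 90.2 in the other 4, and Pax5 reached 205 CPM in that uninduced library and was listed at 0 in the first induced one. The second Control library also held Cd8a at 85.1 CPM and Cd4 at 65.5, against 3.25 and 5.49 in the first. The part of these cells in the levels below was not tested. In a mixed population, fewer cells of a type and less RNA per cell cannot be told apart.

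Across the 25 genes the median level in uninduced libraries was 6.87% of the Control mean (range 0% to 28.0%), and in induced libraries 28.5% (range 5.74% to 47.3%). The median gene had thus regained 21.3% of the distance between uninduced and Control. Both values are capped by the rule and are descriptions. The working name of the set, genes not restored by induction, holds only in part, since in 20 of the 25 both induced libraries lay above both uninduced libraries. The same was true of 25.2% of the 18174 genes tested, but genes low in the uninduced libraries were picked, which favours this order. Among the other genes that met the Control and uninduced conditions, it held for 33 of the 39 and 168 of the 168. For the 168 it was fixed by the limits. The exceptions among the 25 were Cnn3, N4bp3, Tmem121b, Prkcz and Gm16485. Tnfrsf10b is counted among the 20 by a small margin that holds on raw totals only. The 25 genes are therefore better called RBPJ-dependent genes that lay under 50% of Control after 6 days of induction.

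**Figure D1:**
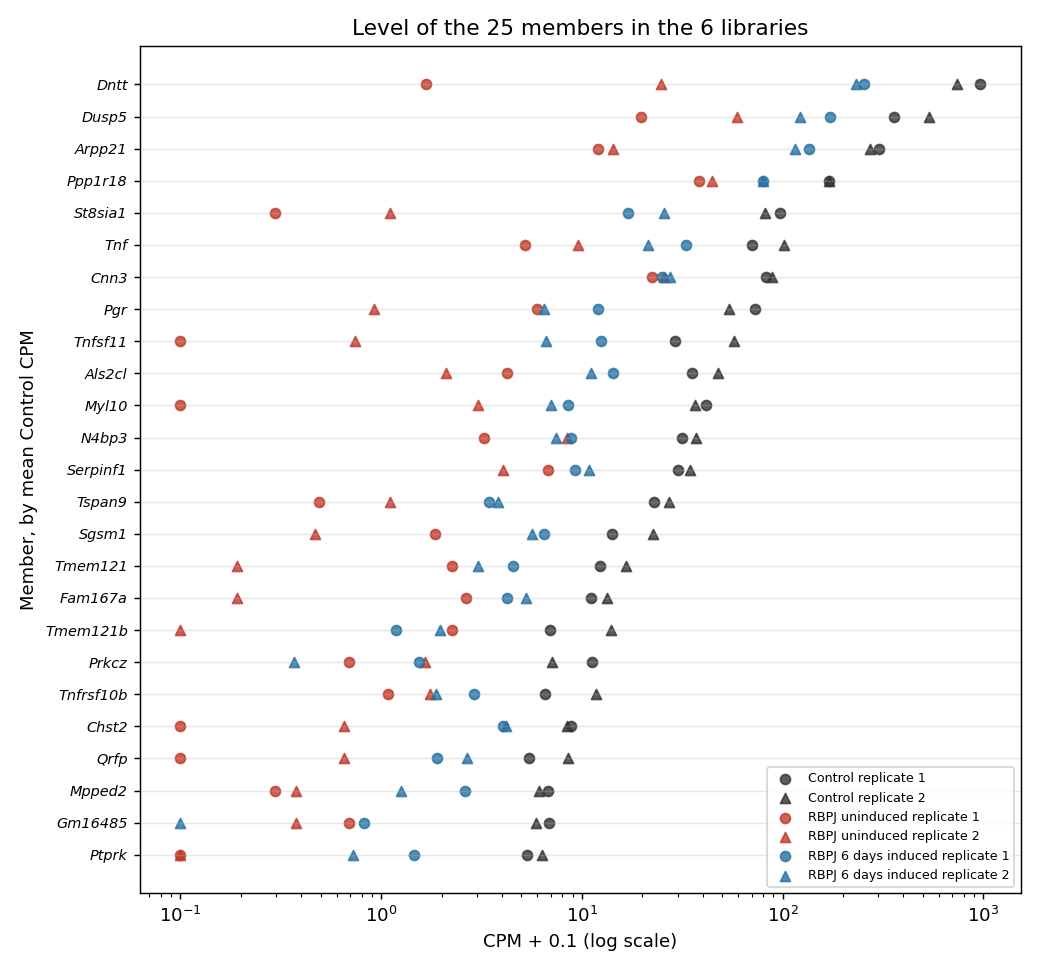
CPM plus 0.1 of the 25 genes in each of the 6 libraries on a logarithmic axis, 1 row a gene, with groups in separate colours and replicates in separate symbols. The induced libraries lie between uninduced and Control for most genes, and beside the uninduced libraries for Cnn3 and Prkcz.

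All 25 genes passed the filter on low counts. edgeR's quasi-likelihood test, adjusted over all 18174 genes with a threshold of 0.05, called 17 of the 25 lower in uninduced than in Control, where 2.93% of all genes were called lower. No member was called lower in induced than in Control, nor was any of the 18174 genes, 0%. At an unadjusted p under 0.05 that comparison held 18 of the 25 genes and 281 of all genes (1.55%), and DESeq2 called 11 of the 25, where it called 0.321% of genes lower. The rule used both comparisons with Control, so these counts describe the choice of genes and support nothing. In the comparison of induced with uninduced libraries, edgeR called 5 of the 25 higher, where 1.55% of all genes were called higher, and 0 of the 25 lower, where 0.413% of all genes were. At an unadjusted p under 0.05 the counts were 16 higher, where 8.51% of all genes were, and 0 lower, where 6.93% were. DESeq2 called 9 higher and 0 lower, where it called 4.65% and 2.66% of genes. That comparison is not independent of the choice either, since genes low in the uninduced libraries were picked.

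Dntt encodes terminal deoxynucleotidyl transferase, the enzyme that adds untemplated bases at the joins of rearranging antigen receptor genes. The gene (ENSMUSG00000025014) lies on chromosome 19 at 41029275 to 41059525, plus strand, in mm10. It had the highest Control level of the set, 968 and 741 CPM, and fell to 1.57 and 24.7 in the uninduced libraries. The induced libraries held 256 and 232 CPM, well above both uninduced libraries. No member can overlap Control in either group, since the rule set both groups below it. The rise from uninduced to induced was 3.91 on the log2 scale (SE 0.81, edgeR adjusted p = 0.0465, and 0.146 with only the 4 compared libraries), and brought Dntt to 28.5% of the Control mean.

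Arpp21 encodes an RNA-binding phosphoprotein of thymocytes and neurons and hosts the microRNA Mir128-2 in an intron. It lies on chromosome 9 at 112065091 to 112235938, minus strand. Its level was 302 and 273 CPM in Control, 11.96 and 14.2 in uninduced and 136 and 115 in induced libraries. The 2 libraries of each group were close on raw totals. The uninduced ones differed more once totals were scaled by TMM, the scaling used in the edgeR fit. Both induced libraries lay above both uninduced ones. Induction raised it by 3.16 on the log2 scale (SE 0.26, edgeR adjusted p = 0.000951) to 43.5% of the Control mean, and this call held under every alternative tried (highest adjusted p 0.0243). The lincRNA 2900079G21Rik overlaps it on the opposite strand with 50 and 47 reads in Control, 0 and 8 in uninduced and 31 and 17 in induced libraries, and reads of the 2 strands cannot be told apart without the strand setting of the counting.

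Both genes stand on a list of 21 genes that mark later thymocytes or mature T cells. Summed over that list, the level was 2393 and 2557 CPM in Control, 652 and 485 in uninduced and 1427 and 1247 in induced libraries. Since Dntt and Arpp21 were chosen for this pattern, the list is also given without them. The other 19 genes summed to 1123 and 1543 CPM in Control, 639 and 446 in uninduced and 1036 and 900.4 in induced libraries. Of the 16 of these that were tested, edgeR called 4 lower in uninduced than in Control (2.93% of all genes) and none higher.

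The next 5 members encode secreted proteins or belong to the tumour necrosis factor (TNF) families. Tnf, an inflammatory cytokine gene on chromosome 17 at 35199381 to 35202007, minus strand, stood at 70.4 and 102 CPM in Control, 5.10 and 9.43 in uninduced and 32.7 and 21.3 in induced libraries. Both induced libraries lay above both uninduced ones, but the rise on induction, 1.73 on the log2 scale, missed the threshold (SE 0.42, edgeR adjusted p = 0.0763). Its neighbour Ltb, which encodes lymphotoxin beta and lies 3061 bases away, also met the first conditions, at 18.8 and 20.7 CPM in Control and 0 and 3.85 in uninduced libraries. Ltb reached 21.3 and 25.3 CPM in the induced libraries, both above both Control libraries. Both Tnf values were under the lower Control library, as the rule requires of a member. Neither Ltb difference passed the edgeR threshold (adjusted p = 0.109 for uninduced against Control and 0.123 for induced against uninduced).

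Tnfsf11 encodes RANKL, a TNF-family ligand that thymocytes and innate lymphoid cells present to thymic epithelium. It lies on chromosome 14 at 78277445 to 78308043, minus strand. Its level was 28.9 and 57.0 CPM in Control, 0 and 0.641 in uninduced and 12.4 and 6.49 in induced libraries. Both induced libraries were clear of the near absence in uninduced cells, with a rise of 4.34 on the log2 scale (SE 0.79, edgeR adjusted p = 0.0290, and 0.150 with only the 4 compared libraries). Control libraries differed from each other by 1.97-fold, and the induced libraries reached 21.9% of their mean.

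Tnfrsf10b, a receptor for the death ligand TRAIL, stood far lower, at 6.42 and 11.7 CPM in Control, 0.981 and 1.65 in uninduced and 2.80 and 1.78 in induced libraries. Serpinf1, which encodes the secreted factor PEDF, was at 29.9 and 34.6, then 6.67 and 3.94, then 9.11 and 10.8 CPM. Qrfp, a neuropeptide gene, was at 5.34 and 8.47, then 0 and 0.550, then 1.80 and 2.58 CPM. In all 3 the induced libraries lay above both uninduced ones on raw totals, without passing the edgeR test. For Tnfrsf10b the margin was 20 reads in the second induced library against 18 in the second uninduced one. Their TMM factors, 0.957 and 0.824, reverse that order.

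Among the 7 signalling genes, Dusp5 was the most abundant. It encodes a nuclear phosphatase that acts on the kinase ERK and is itself switched on by ERK signalling. It lies on chromosome 19 at 53529109 to 53542431, plus strand. Its level was 360.3 and 536 CPM in Control, 19.6 and 59.4 in uninduced and 172 and 122 in induced libraries. Both induced libraries lay above both uninduced ones, and the rise of 1.71 on the log2 scale did not pass (SE 0.50, edgeR adjusted p = 0.135).

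Als2cl encodes a protein related to the guanine nucleotide exchange factor alsin. It stood at 35.3 and 47.6 CPM in Control, 4.12 and 2.01 in uninduced and 14.2 and 10.9 in induced libraries. The rise on induction was 2.07 on the log2 scale (SE 0.38, edgeR adjusted p = 0.0307). That call was lost with only the 4 compared libraries (edgeR adjusted p = 0.146), without the second Control library (0.0527) and without the first induced library (0.112). Sgsm1, a regulator of Rab GTPases, was at 14.0 and 22.6 CPM in Control, 1.77 and 0.366 in uninduced and 6.40 and 5.52 in induced libraries, and did not pass (log2 rise 2.64, edgeR adjusted p = 0.0847).

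Prkcz, the atypical protein kinase C zeta, was among the genes with no measured recovery. It was at 11.1 and 6.97 CPM in Control, 0.588 and 1.56 in uninduced and 1.44 and 0.267 in induced libraries, where the last value rests on 3 reads. N4bp3 was at 31.5 and 36.9, then 3.14 and 8.33, then 8.75 and 7.29 CPM. Its second uninduced library lay between the induced ones on raw totals, and above both with TMM. For both genes the uninduced and induced libraries overlapped.

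Ptprk, a receptor-type tyrosine phosphatase known for its part in CD4 T-cell development, had no read in either uninduced library. Control held 5.26 and 6.21 CPM, at least 13.3-fold higher, and induced libraries held 1.35 and 0.623 CPM, at least 2.29-fold higher, each against a floor of 3 reads a library that covers counting error only. Mpped2, a metallophosphoesterase, was at 6.65 and 6.02 CPM in Control, 0.196 and 0.275 in uninduced and 2.52 and 1.16 in induced libraries. These are among 10 members with a Control mean under 15 CPM, for which the uninduced libraries held at most 18 reads and the induced libraries 0 to 58.

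The next 3 genes belong to the actin and myosin system, and edgeR called none of them higher on induction. Cnn3, an actin-binding calponin on chromosome 3 at 121426497 to 121458207, plus strand, was at 82.7 and 88.7 CPM in Control, 22.4 and 25.6 in uninduced and 24.9 and 27.5 in induced libraries. Its uninduced and induced libraries overlapped, with a difference of 0.05 on the log2 scale (SE 0.27, edgeR adjusted p = 0.961). Cnn3 had thus regained 3.54% of the distance to Control, with replicates close together on raw totals. The TMM factors of the uninduced libraries were 1.13 and 0.824. Scaled by them, the 2 uninduced libraries of Cnn3 lie further apart, on either side of the induced ones. Ppp1r18, which encodes phostensin, a partner of protein phosphatase 1 on actin, was at 170.3 and 171 CPM in Control, 38.4 and 44.5 in uninduced and 80.2 and 79.5 in induced libraries. On raw totals the uninduced and induced libraries of Ppp1r18 were far apart relative to their replicates, and less so with TMM. Ppp1r18 stood at 46.8% of Control after induction. The rise of 0.87 on the log2 scale did not pass (SE 0.24, edgeR adjusted p = 0.113). Myl10, a myosin light chain gene, was at 41.2 and 36.3, then 0 and 2.93, then 8.48 and 6.94 CPM.

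**Figure D2:**
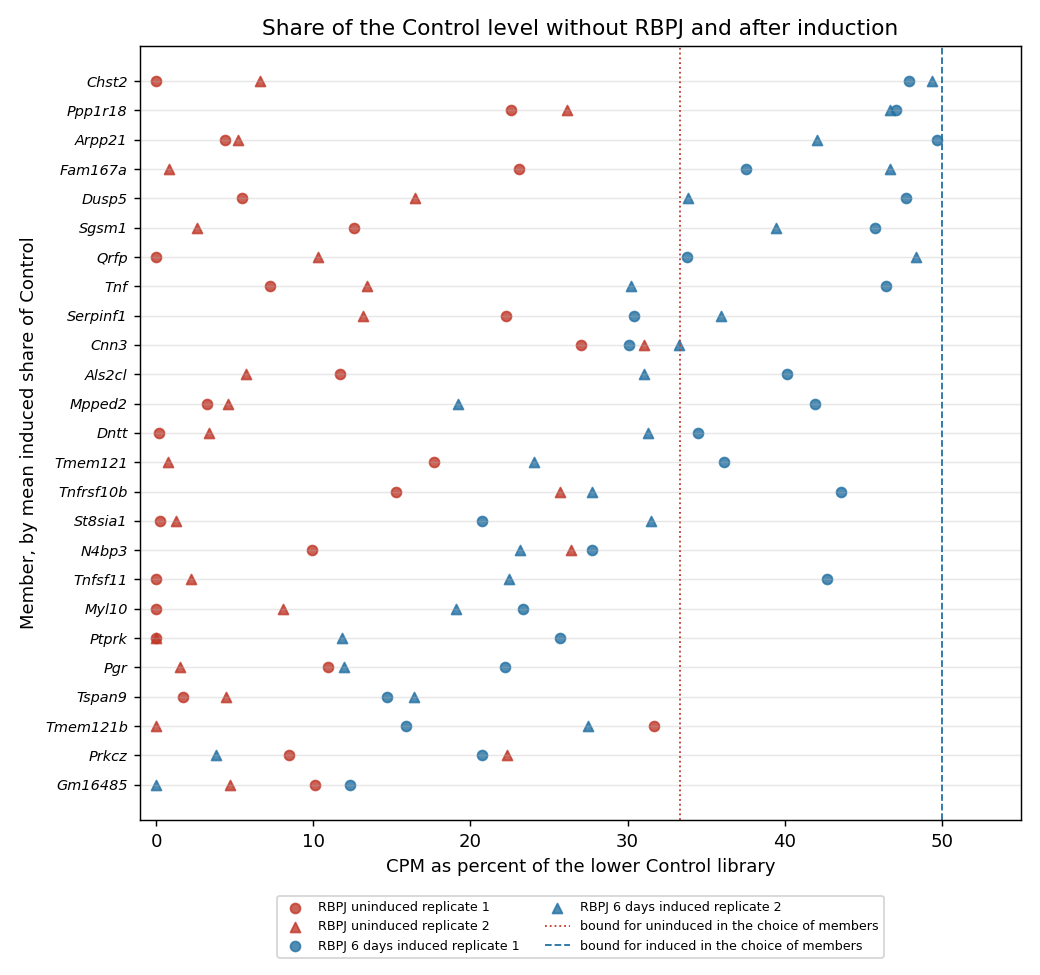
Level of each of the 25 genes in each uninduced and induced library as a percentage of the lower Control library, with the limits of the choice as vertical lines at 33.3% and 50%. Arpp21 and Chst2 come nearest to the induced limit, at 49.7% and 49.4%.

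St8sia1 encodes GD3 synthase, which adds a sialic acid in the making of the ganglioside GD3. It lies on chromosome 6 at 142821545 to 142964452, minus strand. Its level was 96.7 and 81.3 CPM in Control, 0.196 and 1.01 in uninduced and 16.9 and 25.6 in induced libraries. It was close to absent without RBPJ, and induction raised it by 4.76 on the log2 scale (SE 0.55, edgeR adjusted p = 0.00476, and 0.0701 with only the 4 compared libraries), the largest of the 5 called rises. It reached 23.9% of the Control mean.

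Chst2, a sulfotransferase gene that modifies carbohydrate chains, was at 8.74 and 8.28 CPM in Control, 0 and 0.550 in uninduced and 3.97 and 4.09 in induced libraries. Its share of Control after induction, 47.3%, was the highest of the set, just inside the limit. The tetraspanin gene Tspan9 was at 22.7 and 26.9, then 0.392 and 1.01, then 3.34 and 3.74 CPM. The transmembrane protein genes Tmem121 and Tmem121b were at 12.2 and 16.6 and at 6.80 and 13.9 CPM in Control. After induction Tmem121 held 4.42 and 2.94 CPM, above 2.16 and 0.0916 without it, while Tmem121b, at 1.08 and 1.87, overlapped its uninduced libraries at 2.16 and 0.

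Pgr encodes the progesterone receptor, a nuclear hormone receptor, and lies on chromosome 9 at 8899833 to 8968611, plus strand. Its level was 72.5 and 53.7 CPM in Control, 5.88 and 0.824 in uninduced and 11.9 and 6.41 in induced libraries. Both induced libraries were above both uninduced ones, the lower of them by a small margin, and the rise of 1.64 on the log2 scale did not pass (SE 0.62, edgeR adjusted p = 0.235). Pgr regained 9.71% of its distance to Control. Gm16485, which has no assigned role, begins 3180 bases beyond Pgr on the same strand and was at 6.73 and 5.84, then 0.588 and 0.275, then 0.721 and 0 CPM, so both genes of this neighbouring pair stayed low. Fam167a, also without a given role, was at 11.1 and 13.2, then 2.55 and 0.0916, then 4.15 and 5.16 CPM.

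**Figure D3:**
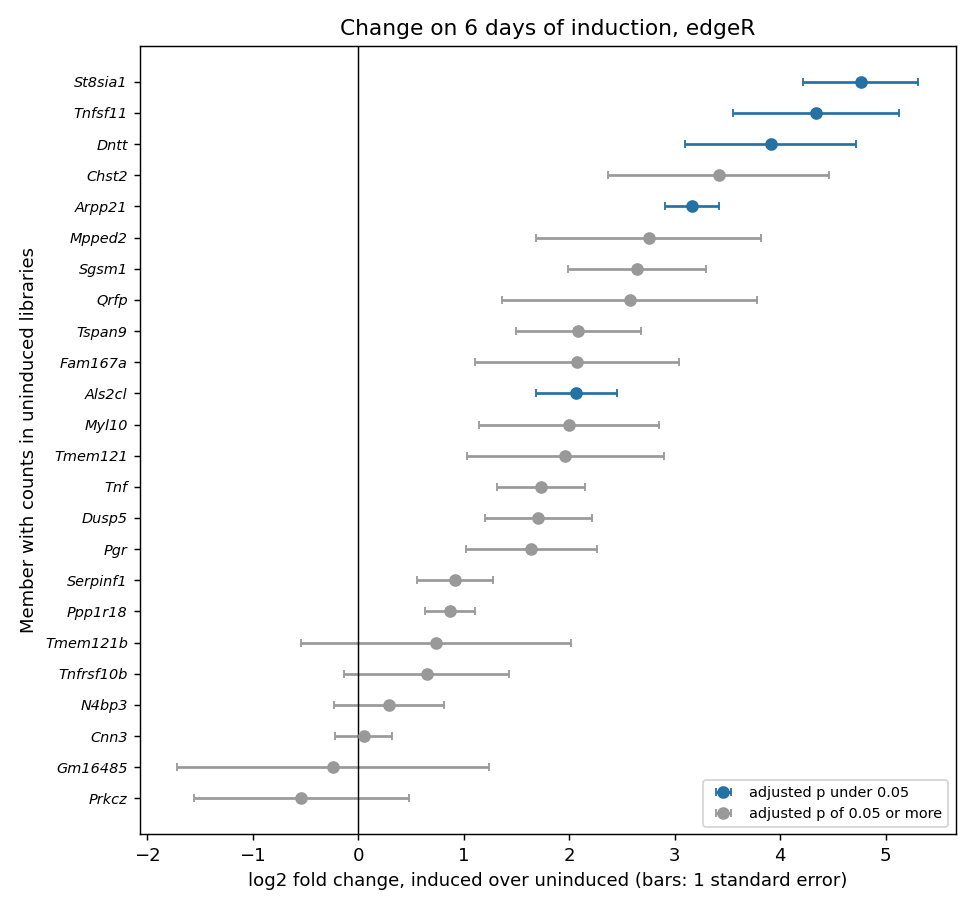
Log2 fold change between induced and uninduced libraries from edgeR for the 24 genes with reads in the uninduced libraries, that is without Ptprk, with bars of 1 standard error. The 5 genes called higher are in blue, and Prkcz and Gm16485 lie below 0.

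Per kilobase of merged exon, Control levels ran from 0.430 CPM for Ptprk to 373 for Dntt, with a median of 7.38. Dusp5 came second at 181, followed by Tnf at 52.6.

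The 25 genes lie on 12 chromosomes. Each has 2 neighbouring protein-coding genes, and of these 50 neighbours 4 met the Control and uninduced conditions, namely Pgr and Gm16485 for each other, Ltb beside Tnf and Slc9a9 beside Chst2. Of the 37 neighbours tested, edgeR called 3 lower in uninduced than in Control (2.93% of all genes) and 0 higher (2.49% of all genes). The 3 were Pgr, itself a member chosen for its low level, Slc9a9, and Cux1 beside Myl10. Slc9a9, a sodium-proton exchanger gene 168847 bases from Chst2, was at 56.9 and 56.3 CPM in Control, 13.1 and 9.43 in uninduced and 68.8 and 48.7 in induced libraries. Its rise on induction was 2.35 on the log2 scale (edgeR adjusted p = 0.00430). Slc9a9 thus lay around its Control level after induction, where Chst2 lay at 47.3%, under the limit that the rule sets for members.

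**Figure D4:**
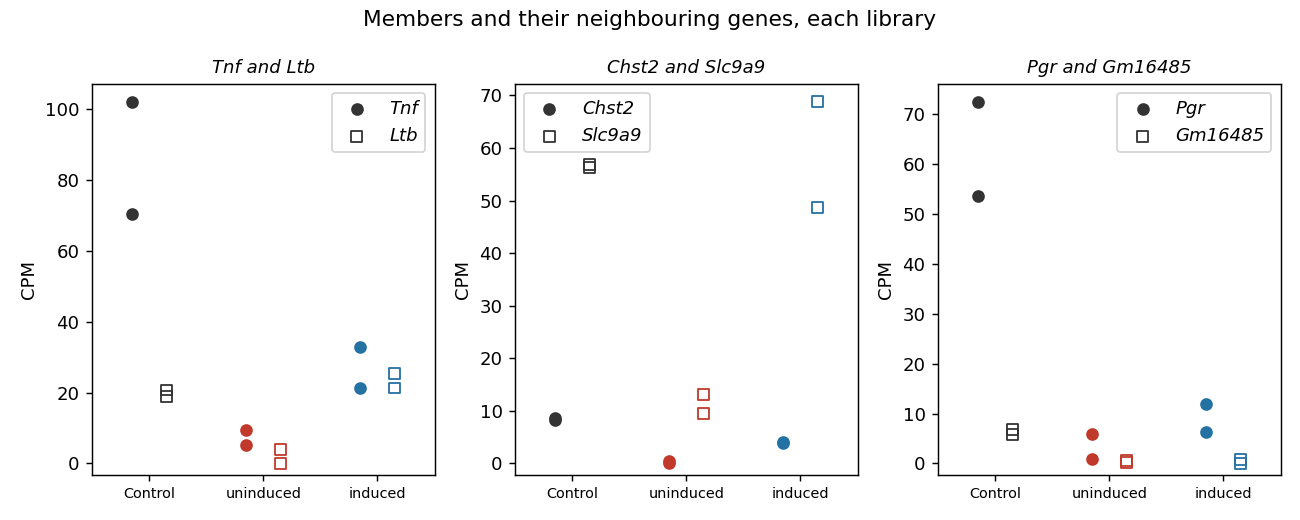
CPM in the 6 libraries for Tnf, Chst2 and Pgr (filled) and for the neighbouring genes that also met the Control and uninduced conditions (open). Ltb and Slc9a9 lie around the Control level after induction, whereas Tnf, Chst2, Pgr and Gm16485 lie below it, as the rule requires of members.

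Promoter sequence was compared with the core that RBPJ recognises, spelled GTGGGAA and searched on both strands. RefSeq windows on GRCm38.p6, from 250 bases before to 50 after the start, were found for 22 of the 25 genes. The motif was present for 2 of the 22, Ppp1r18 and Myl10 (9.09%), and for 7.25% of all 27025 symbols with a window. Counted by window, since a gene can have several starts, it was in 2 of 44 member windows (4.55%) and in 6.38% of all windows. The shorter TGGGAA, which is contained in it, was present for 5 of the 22 (22.7%), against 28.3% of all symbols. These matches are descriptions of the letters near the start and say nothing of binding. The 250 bases before the start are shown for the 2 genes with the longer motif, in capitals, and for Dntt, the most abundant member, which lacks it. The windows are chr17:35865345-35865594 for Ppp1r18, chr5:136692896-136693145 for Myl10 and chr19:41029025-41029274 for Dntt, all on the plus strand.
Ppp1r18: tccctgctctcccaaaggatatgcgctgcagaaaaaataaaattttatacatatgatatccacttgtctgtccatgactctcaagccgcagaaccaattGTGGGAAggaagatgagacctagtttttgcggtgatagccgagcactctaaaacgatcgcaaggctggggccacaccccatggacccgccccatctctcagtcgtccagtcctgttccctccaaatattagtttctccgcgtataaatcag
Myl10: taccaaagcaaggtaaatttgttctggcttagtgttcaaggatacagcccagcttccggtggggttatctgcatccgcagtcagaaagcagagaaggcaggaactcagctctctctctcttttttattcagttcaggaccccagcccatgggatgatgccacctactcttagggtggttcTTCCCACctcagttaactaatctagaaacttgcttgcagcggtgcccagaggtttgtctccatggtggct
Dntt: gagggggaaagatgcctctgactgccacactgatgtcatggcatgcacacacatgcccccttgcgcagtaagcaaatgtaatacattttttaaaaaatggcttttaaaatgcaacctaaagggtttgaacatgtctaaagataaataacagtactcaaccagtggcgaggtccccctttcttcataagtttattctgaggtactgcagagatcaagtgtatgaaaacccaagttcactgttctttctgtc
In Ppp1r18 the motif begins 151 bases before the start on the gene's strand. In Myl10 the motif reads on the opposite strand, so the printed strand carries TTCCCAC, which begins 70 bases before the start.

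The 25 genes were then set beside the rest of the 232 RBPJ-dependent genes, as a description, since the induced libraries split the classes. Without RBPJ the 25 retained a median of 6.87% of the Control mean, the 39 genes with 1 induced library below the limit retained 12.7%, and the 168 with none retained 14.2%. The uninduced condition was the same for all 3 classes. The split into classes and these shares both use the Control level, so the shares are not independent of the split. After induction the medians were 28.5%, 45.0% and 73.7%. edgeR called 5 of 25, 6 of 39 and 91 of 168 higher in induced than in uninduced libraries, and the median log2 rises were 2.00, 1.66 and 2.30. The median log2 rise of the 25 was thus between those of the other classes, while their median uninduced share of Control was the lowest. The induced mean was above the Control mean for 0, 1 and 26 genes. Median exon length differed little, at 4274, 4839 and 4932 bases. The second Control library was a median of 1.17-fold the first for the 25, and 0.991-fold for the 168.

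**Figure D5:**
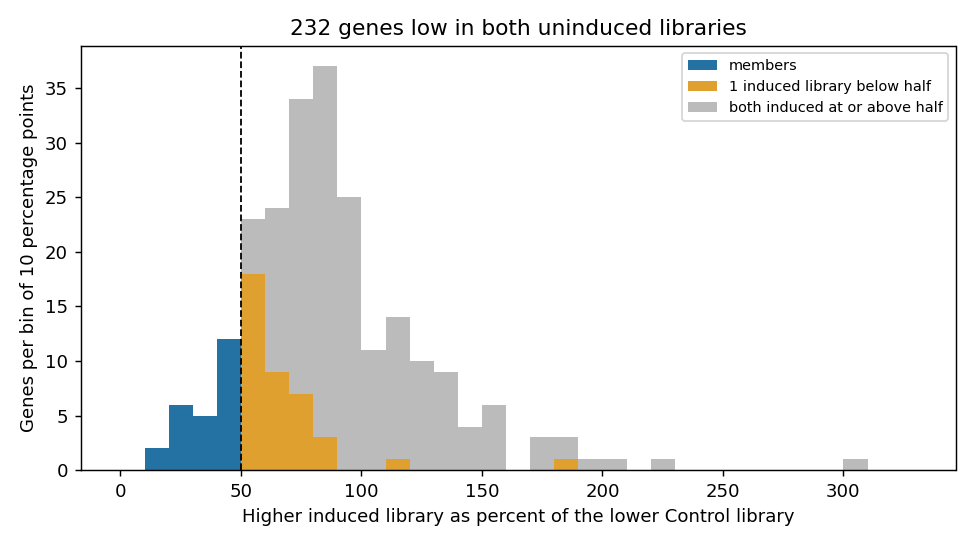
Histogram of the 232 RBPJ-dependent genes by the higher induced library as a percentage of the lower Control library, in bins of 10 percentage points, stacked by class. The 25 members lie to the left of the dashed line at 50% by choice, and the other genes continue from it without a gap.

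Other genes of the pathway and of T-cell identity are given by counts. Of 21 tested Notch pathway and target genes, none a member, edgeR called 5 lower and 1 higher in uninduced than in Control, where 2.93% and 2.49% of all genes were called lower and higher. After induction 6 of them were higher than in uninduced libraries, where 1.55% of all genes were, and none lower. Rbpj, the gene manipulated, is 1 of the 5 and 1 of the 6, and was the 1 gene of the list called higher in induced than in Control, with none lower. Of 25 T-cell receptor signalling genes, 10 were lower without RBPJ and 4 higher on induction, Cd6 and Lck among both, which the rule left out by name. Of 26 T-lineage transcription factor genes, 9 were lower without RBPJ and 8 higher on induction, against the same shares of all genes. The median log2 difference between induced and Control was 0.07 for the Notch list, -0.36 for the receptor signalling list and -0.24 for the factor list, beside -1.74 for the 25 members, which was fixed by their choice, and -0.02 for all genes tested.

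The limits of the rule fell within closely spaced values. On the induced limit, Arpp21 at 49.7% and Chst2 at 49.4% of the lower Control library were just inside, and Tmem151b at 51.0% and Abtb2 at 51.5% just outside. On the uninduced limit, Tmem121b at 31.7% and Cnn3 at 31.0% were just inside, and Rgs7bp at 34.8% and Cspg5 at 38.2% just outside. On the Control limit, Ptprk at 5.26 CPM and Qrfp at 5.34 were just inside, and Npm2 at 4.56 and Scube3 at 4.18 just outside. With totals scaled by TMM the rule kept 20 of the 25, without Arpp21, Chst2, Ppp1r18, Qrfp and Cnn3. With 1 Control library in place of both it took 50 genes on the first alone and 523 on the second alone, the library with the higher Cd8a and Cd4. Every such choice keeps the 25 by construction, since the rule reads the lower Control library.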

How the data were processed

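RNA sequencing of 6 libraries of sorted mouse DN1a/b cells was analysed, 2 a group, grouped by their titles. The deposited files hold the authors' whole-number read counts per Ensembl gene, without normalization. The submitters' processing notes list HISAT2, StringTie, HTSeq and mm10, with no version or role. The counting's strand setting was not given in the sources used here. Names, types and coordinates came from GENCODE M21 on GRCm38, which is mm10, where 47310 of 47729 gene IDs matched. Library totals were 12932928 and 5311391 in Control, 5098927 and 10918205 in uninduced and 11090902 and 11240828 in induced, so 1 read is worth more CPM in the shallower libraries.

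CPM in the text are counts over the file total. Differences were fitted in R 4.3.3 with edgeR 4.0.16 (filterByExpr with groups, minimum count 10 and minimum total 15; TMM; quasi-likelihood, a mean per group over all 6 libraries, 3 residual degrees of freedom). The fit left 18174 genes. P-values were adjusted by Benjamini-Hochberg over all genes tested, with a threshold of 0.05. DESeq2 1.42.0 was an alternative. The script was tested on simulated data. TMM factors were 1.02 and 1.08 in Control, 1.13 and 0.824 in uninduced and 1.02 and 0.957 in induced libraries. The 2 uninduced libraries therefore shift most against each other. Raw totals in place of TMM move the median log2 difference of all genes by -0.12 for uninduced against Control, by -0.08 for induced against Control and by 0.04 for induced against uninduced.

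The members, and 12 gene lists with 197 entries, were chosen with earlier results of these data known. The rule for named genes took the 12 members with the highest Control level, the 6 with the highest and the 6 with the lowest share of Control after induction (clone-named genes aside), members called between induced and uninduced, members on a list, and genes at the limits. Serpinf1, Tmem121, Tnfrsf10b, Mpped2 and Gm16485 fall outside it and were chosen after their values were seen. Of the 25, 9 overlap another gene, 7 of them on the opposite strand, where reads cannot be told apart without strand. Promoters came from RefSeq, GRCm38.p6. Versions of the other tools were Python 3.11.15, pandas 2.3.3, numpy 2.4.6 and matplotlib 3.10.9.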

Additional observations from a re-analysis of the deposited data

How the results depend on the processing

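With 2 libraries a group, counts of calls among the 25 genes moved with the fit. For induced lower than Control, where edgeR called 0, the count was 11 with DESeq2 (0.321% of all genes tested in that fit), 14 with no low-count filter (0.160%), 14 with only the 4 compared libraries (0.213%) and 4 with the replicate block (0.0385%), which treats equal library numbers as pairs. Leaving out single libraries gave 0 to 15 (15 without the first uninduced library, 0.338%, and 14 without the second, 0.305%). For induced higher than uninduced, where edgeR called 5, it was 9, 13, 1 (of 23 tested) and 7 in the same order, beside 4.65%, 1.89%, 0.451% and 2.21% of all genes, and 4 to 12 leaving out single libraries (12 without the first uninduced library, 3.93%, and 11 without the second, 4.53%). For uninduced lower than Control, where edgeR called 17, it was 8 with the 4 compared libraries (0.816% of all genes). Arpp21 kept its rise under every setting, while Dntt, St8sia1, Tnfsf11 and Als2cl lost theirs with the 4 compared libraries (adjusted p = 0.146, 0.0701, 0.150 and 0.146, edgeR), and Als2cl also without the second Control (0.0527) or the first induced library (0.112). No member was lower in induced than in uninduced libraries under any setting run. Equal numbers did not pair the libraries (correlations of deviations -0.0407, 0.0253 and 0.0107).

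The rule took 10 genes with an induced limit of 33.3%, and 30 to 523 leaving out single libraries. The median induced share was 32.6% against the lower Control library and 24.7% to 31.7% leaving out single libraries, and the median uninduced share 4.86% to 7.61%. Log2 differences between induced and uninduced changed sign leaving out 1 library for 5 genes, with ranges of -0.27 to 1.55 for N4bp3, -0.18 to 0.44 for Cnn3, -4.94 to 0.78 for Gm16485 (0.14 without the first uninduced library), -2.08 to 0.71 for Prkcz (0.27 without the second induced library) and -0.33 to 6.92 for Tmem121b. A lone library is assumed to vary like the other groups.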

Other observations

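Another 4 genes met every numerical limit but were not among the 25. Nr4a1, an immediate early nuclear receptor gene induced by T-cell receptor signalling, was left out by name and stood at 410.0 and 779 CPM in Control, 12.4 and 56.1 in uninduced and 143 and 157 in induced libraries. Cd6, a T-cell surface receptor gene also left out by name, was at 20.0 and 37.1, then 0.196 and 0.183, then 9.02 and 7.29 CPM. For both genes the induced libraries lay above both uninduced ones, while the distance from Control was set by the limits. The processed pseudogene Gm12816 and the unclassified transcript Gm44695 are not protein-coding, and stood at 1.53 and 1.07 CPM and at 2.71 and 2.40 CPM after induction.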
